A study of Mus musculus with 2 samples.

Results

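The 9 genes described here write, copy, remove or read DNA methylation, and were measured in 2 libraries of CT26 cells, a mouse colon carcinoma line grown in culture. The members were taken by gene name from the deposited table and are Dnmt1, Dnmt3a, Dnmt3b, Uhrf1, Tet1, Tet2, Tet3, Tdg and Mbd2, 9 of 54680 loci, and each name stood on 1 locus. The knockdown library (CT26shSetdb1) came from cells carrying a short hairpin delivered by lentivirus. Its target, Setdb1, is a methyltransferase of lysine 9 on histone H3. The control library (CT26shCtrl) came from cells given lentivirus with the knockdown vector alone, with the genotype listed as wild type. Both cultures were in RPMI medium with serum and were collected at 6 days, when the knockdown culture was labelled as differentiated. The labels name neither the hairpin sequence nor whether the cells were 1 clone, and uninfected cells were not analysed here. With 1 library in each group there is no replicate check, so every difference below is a difference between these 2 libraries.

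Cytosines in CpG dinucleotides are methylated by DNA methyltransferases. After replication, UHRF1 binds hemimethylated CpGs and brings in DNMT1, which copies the mark onto the new strand, while DNMT3A and DNMT3B set methylation at unmethylated sites. TET dioxygenases oxidise 5-methylcytosine, TDG excises the more oxidised bases, and base excision repair restores cytosine. MBD2 belongs to neither arm and reads the mark, binding methylated CpGs as part of the NuRD deacetylase complex, so the label of writers and erasers fits 8 of the 9 genes. SETDB1 acts beside DNA methylation in silencing retroelements and germline genes, which is background for setting these genes against its knockdown.

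Values are FPKM, fragment counts normalised to gene length and to 1 depth of 18731117 shared by both libraries. Reads were recovered from them (totals of 18421604 for the control and 19045830 for the knockdown). Log2 ratios divide (FPKM + 1) in the knockdown by (FPKM + 1) in the control, which understates differences at low levels. They and plain FPKM ratios are not corrected for the 1.03-fold difference between the totals. Read ratios are relative to each library's own total and carry 95% exact (Clopper-Pearson) intervals, which cover counting error only, since reads without molecular identifiers are not independent molecules. Setdb1 itself was at 10.4 FPKM (1340 reads) in the control and 2.47 FPKM (317 reads) after knockdown, a read ratio of 0.229 (0.202 to 0.259); it overlaps Cers2 on the opposite strand by 75 bases. All 5 mesenchymal markers were above 1 FPKM, led by Vim and Fn1, whereas the epithelial markers Epcam and Cdh1 had no reads in either library. Of 8 epithelial markers, 3 reached 1 FPKM in at least 1 library. In the control and knockdown, Krt18 was at 37.7 and 90.0 FPKM, Krt20 at 5.07 and 35.6, and Krt19 at 0.0288 and 1.53. The summed level of the 8 was 43.2 FPKM in the control and 128 FPKM in the knockdown library. The part of this difference in the results below was not tested. Markers of T cells and endothelium had no reads, and those of B cells and myeloid cells summed to under 1 FPKM in both libraries.

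The 9 genes ranged from 41.9 FPKM for Uhrf1 to a single read for Tet1 in the control library, and the order was the same in both libraries. Uhrf1, Dnmt1 and Mbd2 together made up 94.8% of the summed FPKM of the 9 genes in the control and 95.2% after knockdown. Tdg and Tet3 lay near 2 FPKM, Dnmt3a, Dnmt3b and Tet2 near or below 1 FPKM, and Tet1 had 1 read in all. Most neighbours in this order differed by more than counting error, with 3 exceptions: the intervals of Tdg and Tet3 overlapped in both libraries, those of Dnmt3a and Dnmt3b in the control library only, and those of Dnmt3b and Tet2 in the knockdown library only. When reads were divided by the longest coding transcript with a consensus coding sequence in GENCODE M21 in place of the authors' gene model, a choice made after seeing the data, Tet2 passed Dnmt3b in the knockdown library and the order was otherwise the same.

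**Figure D1:**
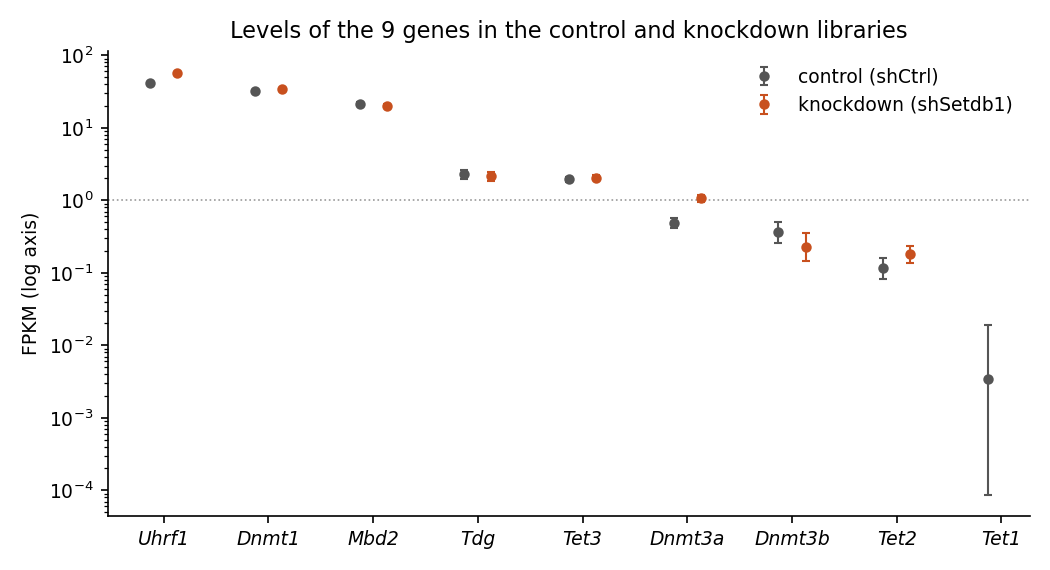
FPKM on a log axis of each of the 9 genes in the control library (grey) and the knockdown library (orange), with exact 95% Poisson intervals of the reads as bars and a dotted line at 1 FPKM. Uhrf1, Dnmt1 and Mbd2 sit above 20 FPKM in both libraries, and Tet1 in the knockdown library is not drawn because it had 0 reads.

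Of the 9 genes, 6 reached 1 FPKM in at least 1 library and 5 in both. Dnmt3a passed this filter only through the knockdown library, where it was at 1.06 FPKM, and Dnmt3b was the highest of those that did not pass, at 0.366 FPKM in the control. None of the 6 differed 2-fold on the (FPKM + 1) scale, where 11.7% of the 10671 genes at 1 FPKM did, and none differed 1.5-fold, where 31.2% did. Their median log2 ratio was 0.06, or -0.0083 under upper-quartile scaling, against -0.00039 for all genes at 1 FPKM. On read ratios, which have no pseudocount, 8 of the 9 genes had 50 reads or more in sum, and 1 of the 8, Dnmt3a, passed 2-fold, against 18.1% of the 11221 genes with as many reads. The counting interval excluded 1 for 3 of the 8, Uhrf1 and Dnmt3a above and Mbd2 below, against 75.2% of those genes. The scale of the deposited FPKM, which keeps the difference between the library totals, was tried after seeing the data. On it, 4 of the 8 intervals excluded 1, against 74.8% of those genes. There Mbd2 was no longer among them, and Dnmt1 and Tet2 joined Uhrf1 and Dnmt3a above 1. At each of these thresholds the share among these 6 or 8 genes was below that among all genes, though so few genes give only coarse shares.

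**Figure D2:**
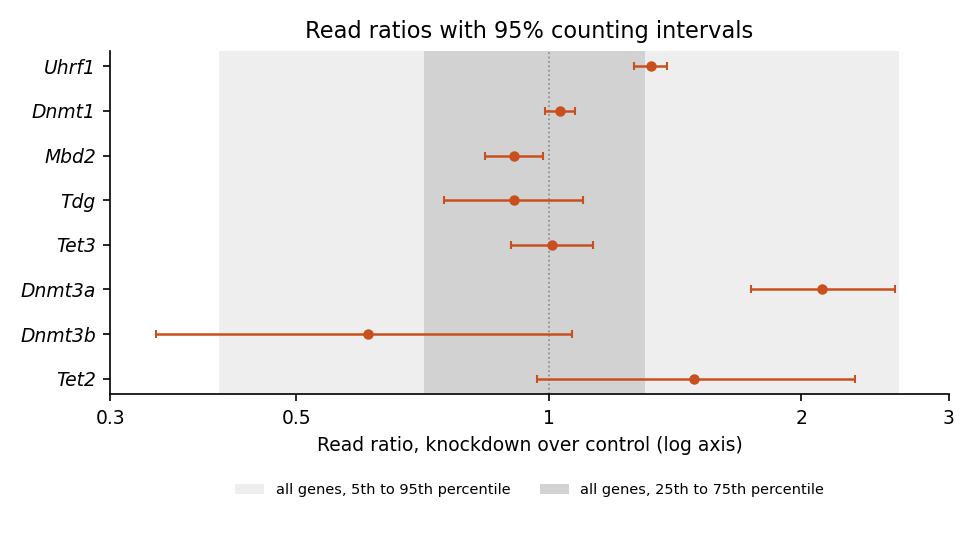
Read ratio, knockdown over control on a log axis, of the 8 genes with 50 reads or more, with exact 95% counting intervals. Grey bands run from the 25th to the 75th and from the 5th to the 95th percentile of all 11221 genes with as many reads. Dnmt3a at 2.12, Tet2 at 1.49 and Uhrf1 at 1.32 lie to the right of the inner band and Dnmt3b at 0.608 to its left, with the other 4 genes inside it.

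Of the maintenance arm, Uhrf1 was higher in the knockdown library and Dnmt1 differed little. Uhrf1 (ENSMUSG00000001228, plus strand of chromosome 17, 56303321 to 56323486 in GRCm38) encodes the ubiquitin ligase that recognises hemimethylated DNA. It was at 41.9 FPKM (3341 reads) in the control and 57.3 FPKM (4571 reads) in the knockdown library, with a log2 ratio of 0.44 (read ratio 1.32, 1.27 to 1.38). Uhrf1 was the most abundant of the 9 genes in both libraries, and 79.2% of the 500 genes nearest to it in mean level had a lower ratio. Dnmt1 (ENSMUSG00000004099, minus strand of chromosome 9, 20907209 to 20959888), the maintenance methyltransferase, was at 31.99 FPKM (4420 reads) in the control and 34.1 FPKM (4707 reads) in the knockdown library. Its log2 ratio was 0.09, or 0.0022 under upper-quartile scaling, and its read ratio was 1.03 (0.988 to 1.07), an interval that holds 1. On the scale of the deposited FPKM the ratio was 1.06 (1.02 to 1.11), an interval above 1. The FPKM of Uhrf1 relative to Dnmt1 was 1.31 in the control and 1.68 in the knockdown library, a change of 1.28-fold (exact conditional interval 1.21 to 1.37) that does not depend on how the libraries are scaled.

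Promoter windows of RefSeq on GRCm38.p6, from 250 bases before to 50 bases after a start site, were found for 8 of the 9 genes, 13 windows in all. They were searched on both strands for an E2F-type motif, TTTGGCGC or TTTCGCGC, because Uhrf1 and Dnmt1 are known as genes of S phase and E2F factors drive that program. Matches on opposite strands can share the letters GCGC. Of the 13 windows 2 held the motif, 1 of Dnmt1 and 1 of Uhrf1, and 0.813% of all 32851 windows did (1.80% of the 3837 windows with 30 CpGs or more). These windows are shown because they hold the motif, which is in capitals, 5′ to 3′ on the strand of the gene. The other windows of the same genes held no match. They lie at Dnmt1 starts for 1620 and 1501 residues and at a Uhrf1 start for 782 residues. Those starts are upstream of the windows shown, so relative to them all the matches lie downstream. The Uhrf1 window is chr17:56304063-56304362, plus strand, at the start of a transcript that encodes 774 residues, and its motif begins 185 bases before the start. The Dnmt1 window is chr9:20952574-20952873, minus strand, at the start of a transcript that encodes 1501 residues. It holds TTTCGCGC on the opposite strand from 219 bases before the start and TTTGGCGC from 33 bases after it. A match is a description of the letters and no evidence of binding, and the tables do not say which start site the cells used.
Uhrf1: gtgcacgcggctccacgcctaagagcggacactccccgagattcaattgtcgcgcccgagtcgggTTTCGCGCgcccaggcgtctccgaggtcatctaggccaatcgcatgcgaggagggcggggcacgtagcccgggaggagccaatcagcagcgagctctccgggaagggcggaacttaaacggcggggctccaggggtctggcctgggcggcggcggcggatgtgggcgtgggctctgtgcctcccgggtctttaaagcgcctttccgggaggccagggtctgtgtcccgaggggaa
Dnmt1: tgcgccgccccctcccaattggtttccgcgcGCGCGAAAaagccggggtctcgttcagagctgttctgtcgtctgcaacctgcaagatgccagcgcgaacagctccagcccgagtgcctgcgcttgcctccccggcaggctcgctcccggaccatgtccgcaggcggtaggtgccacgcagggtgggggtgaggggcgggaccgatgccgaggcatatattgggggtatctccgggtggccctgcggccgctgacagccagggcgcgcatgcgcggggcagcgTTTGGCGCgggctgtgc

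Uhrf1 and Dnmt1 follow the cell cycle, so S phase genes are given beside them. All 25 S phase and cell cycle genes of the list reached 1 FPKM, and 15 were higher and 10 lower, with a median log2 ratio of 0.08 that was -0.0019 under upper-quartile scaling. At 1.5-fold, 5 were higher and 1 was lower, against 16.9% and 14.3% of all genes. Ccne2, 1 of these 5, passed the filter of 1 FPKM only through the knockdown library, where it was high. Those higher were Ccne1 (cyclin E1; 15.5 against 49.2 FPKM, read ratio 3.07), Ccne2 (cyclin E2; 0.535 against 1.39 FPKM), the transcription factor E2f1 (30.6 against 57.0 FPKM, read ratio 1.80, 1.70 to 1.91), the replication helicase subunit Gins2 (7.26 against 12.5 FPKM) and the origin licensing factor Cdc6 (4.26 against 7.10 FPKM). Top2a, the topoisomerase of late S phase and mitosis, was the lower one, at 13.1 against 7.43 FPKM. The proliferation marker Mki67 was at 4.41 and 4.32 FPKM, and the replication clamp Pcna at 76.1 and 77.3 FPKM. The part of cell cycle stage in the Uhrf1 value was not tested, and in bulk RNA more cells in a stage and more RNA per cell cannot be told apart.

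The list of maintenance and DNMT partners was mixed. It also holds genes outside the maintenance machinery, among them Ehmt1, Ehmt2, Trim28 and Zfp57. Of 17 genes on that list, 11 reached 1 FPKM, 4 higher and 7 lower, with a median log2 ratio of -0.12; Setdb1, the target of the hairpin, is one of them, and without it the counts were 4 and 6 and the median was -0.12. Cdca7, the zinc finger cofactor of the HELLS remodeller that opens heterochromatin to DNMT1, was at 21.1 FPKM (1263 reads) in the control and 10.4 FPKM (621 reads) in the knockdown library, with a log2 ratio of -0.96 (read ratio 0.476, 0.431 to 0.524). Its paralog Cdca7l was at 8.19 and 4.85 FPKM, with a log2 ratio of -0.65. Cdca7, Cdca7l and Setdb1 were the 3 of 11 past 1.5-fold in either direction, against 31.2% of all genes. Without Setdb1, the target of the hairpin, 2 of 10 were lower by 1.5-fold, against 14.3% of all genes. Hells stayed under 1 FPKM, with 112 reads in the control and 99 in the knockdown library. Usp7, the deubiquitinase that stabilises UHRF1 and DNMT1, was at 6.15 and 4.49 FPKM (read ratio 0.706, 0.637 to 0.781). Uhrf2, the paralog of Uhrf1, was at 2.18 and 1.95 FPKM, with a read ratio of 0.863 (0.738 to 1.01) whose interval holds 1. The highest ratio was that of Lig1, the ligase that joins Okazaki fragments and binds UHRF1 in its methylated form, at 31.1 and 45.4 FPKM (log2 ratio 0.53).

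The de novo methyltransferases were both at low levels and their read ratios lay on either side of 1. Dnmt3a (ENSMUSG00000020661, plus strand of chromosome 12, 3806007 to 3914443) was at 0.484 FPKM (151 reads) in the control and 1.06 FPKM (331 reads) in the knockdown library. Its read ratio of 2.12 (1.74 to 2.59) was the largest of the 8 genes with 50 reads, and its log2 ratio of 0.47 became 0.99 with a pseudocount of 0.1. Dnmt3b (ENSMUSG00000027478, plus strand of chromosome 2, 153649450 to 153687730) was at 0.366 FPKM (35 reads) in the control and 0.230 FPKM (22 reads) in the knockdown library, a read ratio of 0.608 (0.340 to 1.07). That interval holds 1, so a difference of Dnmt3b was not detectable at this depth. The FPKM of Dnmt3a relative to Dnmt3b was 1.32 in the control and 4.62 in the knockdown library, a change of 3.48-fold (1.91 to 6.45). Dnmt1 was still 32.1 times the FPKM of Dnmt3a in the knockdown library, after 66.0 times in the control. These 2 folds depend on the gene lengths used and are smaller per longest coding transcript. On that length Dnmt1 was at 40.2 FPKM in the control and 42.8 in the knockdown library, and Dnmt3a at 0.832 and 1.82. Dnmt3l, the inactive cofactor of the DNMT3 enzymes in germ cells, had 11 reads in the control and 1 in the knockdown library (read ratio 0.0879, 0.00204 to 0.605), and the germline enzyme Dnmt3c had 0 in both, which allows up to 3 reads.

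Dnmt3a has alternative promoters that give proteins of different length, and the gene-level reads do not separate them. Windows at 2 of its 3 RefSeq starts on GRCm38.p6 are shown because the reads behind the largest ratio of the 9 genes could come from either, with each CpG in capitals, 5′ to 3′ on the plus strand. The upstream window, chr12:3806910-3807209, lies at the start of a transcript that encodes 908 residues. It holds 47 CpGs, with an observed over expected ratio of 1.06, and 98.6% of all 32851 windows held fewer. The internal window, chr12:3891494-3891793, lies at the start of a transcript that encodes 689 residues and lacks the N-terminal part. It holds 18 CpGs, with an observed over expected ratio of 0.468, and 70.3% of all windows held fewer. The median over all windows was 7 CpGs. Methylation of these windows was not measured.
Dnmt3a upstream window: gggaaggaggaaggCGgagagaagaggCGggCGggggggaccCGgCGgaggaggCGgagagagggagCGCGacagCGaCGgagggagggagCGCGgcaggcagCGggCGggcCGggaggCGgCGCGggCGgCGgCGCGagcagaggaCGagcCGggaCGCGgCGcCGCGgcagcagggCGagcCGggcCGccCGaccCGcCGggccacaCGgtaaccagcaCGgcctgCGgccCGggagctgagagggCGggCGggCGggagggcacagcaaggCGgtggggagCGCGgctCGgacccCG
Dnmt3a internal window: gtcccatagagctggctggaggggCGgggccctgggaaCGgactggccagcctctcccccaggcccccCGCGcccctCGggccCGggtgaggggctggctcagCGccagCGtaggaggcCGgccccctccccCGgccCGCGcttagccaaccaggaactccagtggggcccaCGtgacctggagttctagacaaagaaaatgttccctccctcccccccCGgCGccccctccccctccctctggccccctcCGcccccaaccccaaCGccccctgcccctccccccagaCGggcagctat

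Among the TET dioxygenases, Tet3 carried 94.2% of the summed FPKM of the family in the control and 91.9% in the knockdown library. Tet3 (ENSMUSG00000034832, minus strand of chromosome 6, 83362373 to 83459084) was at 1.96 FPKM (613 reads) in the control and 2.04 FPKM (639 reads) in the knockdown library. Its read ratio was 1.01 (0.901 to 1.13), and its log2 ratio of 0.04 changed sign under upper-quartile scaling and under the sum without the 100 highest genes. Tet2 (ENSMUSG00000040943, minus strand of chromosome 3, 133463679 to 133545139) was at 0.117 FPKM (37 reads) and 0.180 FPKM (57 reads), a read ratio of 1.49 (0.968 to 2.32) whose interval holds 1. On the scale of the deposited FPKM it was 1.54 (1.001 to 2.40), just above 1. Tet1 (ENSMUSG00000047146, minus strand of chromosome 10, 62804570 to 62908996), best known from embryonic stem cells, had 1 read in the control and 0 in the knockdown library. A count of 0 allows up to 3 reads, or 0.0104 FPKM at the length of this gene, and no ratio is given.

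TET enzymes need 2-oxoglutarate, which isocitrate dehydrogenases supply and which 2-hydroxyglutarate, succinate and fumarate can compete with. Of 15 genes on that list 14 reached 1 FPKM, 8 higher and 6 lower, with a median log2 ratio of 0.04 that lay below 0 under 4 of the alternatives. Past 1.5-fold there was 1 of the 14, against 31.2% of all genes: Cxxc5, a CXXC zinc finger protein related to the TET family, at 1.65 FPKM (70 reads) in the control and 6.11 FPKM (260 reads) in the knockdown library, a read ratio of 3.59 (2.75 to 4.75). Idh1, the cytosolic isocitrate dehydrogenase, was at 6.47 and 5.30 FPKM (read ratio 0.792, 0.673 to 0.931), and the mitochondrial Idh2 at 59.0 and 78.9 FPKM (read ratio 1.29, 1.23 to 1.36). Idh1 was thus lower and Idh2 higher, each by more than counting error. The related Cxxc4 had no reads in either library.

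Tdg (ENSMUSG00000034674, plus strand of chromosome 10, 82629828 to 82650799), the glycosylase that removes oxidised methylcytosine, differed little at its own locus. It was at 2.27 FPKM (229 reads) in the control and 2.14 FPKM (215 reads) in the knockdown library, a read ratio of 0.908 (0.750 to 1.10) whose interval holds 1. Most reads that the table assigns to loci with the TDG protein match lay elsewhere. Gm9855, a processed pseudogene of 1194 bases (ENSMUSG00000085666, minus strand of chromosome 10, 42054113 to 42055306), was at 26.6 FPKM (595 reads) in the control and 20.9 FPKM (467 reads) in the knockdown library, 11.7 and 9.78 times the FPKM of Tdg. Its read ratio was 0.759 (0.671 to 0.858). With the reads of all 5 loci added up, the counts were 836 and 686 and the read ratio was 0.794 (0.716 to 0.879), an interval below 1, and the gene itself held 27.4% and 31.3% of them. How reads that fit both a gene and its copy were assigned is not stated, so the level of Tdg is uncertain. Tdg also overlaps Glt8d2 on the opposite strand by 367 bases, and Glt8d2 had 234 reads in the control and 172 in the knockdown library. Gm9855 and Glt8d2 were named after their values were seen.

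**Figure D3:**
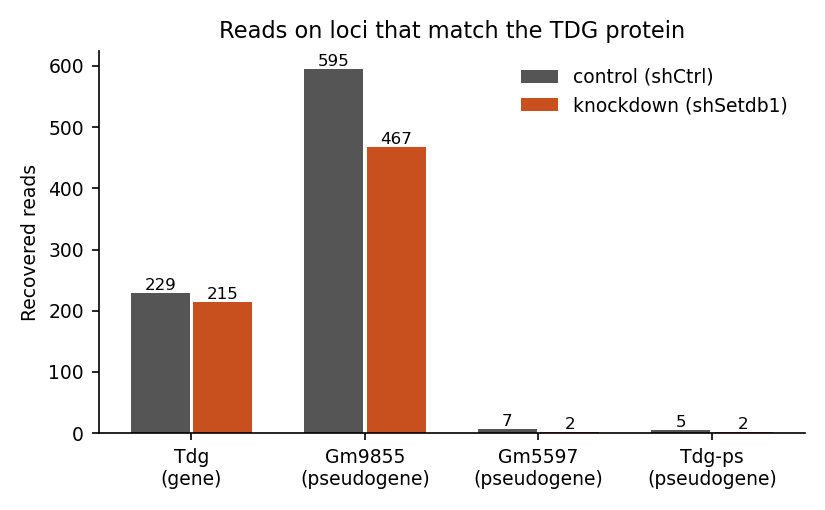
Recovered reads on Tdg and on the 3 pseudogenes with the same protein match that had reads, in the control (grey) and knockdown (orange) libraries. Gm9855 holds 595 and 467 reads, more than the 229 and 215 of Tdg itself.

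The list of base excision repair, which completes demethylation after TDG, also held the 3 Gadd45 genes and was mixed. Of 16 genes 15 reached 1 FPKM, 8 higher and 7 lower, with a median log2 ratio of 0.16, and 3 were higher and 2 lower by 1.5-fold, against 16.9% and 14.3% of all genes. For either direction, 5 of 15 is close to the 31.2% of all genes, and the 5 were the 3 Gadd45 genes, Apex1 and Neil3. The 3 Gadd45 genes, stress-induced factors proposed to aid active demethylation, differed most and in both directions. Gadd45a was at 56.0 FPKM (1851 reads) in the control and 7.05 FPKM (233 reads) in the knockdown library, with a log2 ratio of -2.82 (read ratio 0.122, 0.106 to 0.140). Gadd45b was at 14.6 FPKM (434 reads) and 42.0 FPKM (1249 reads), a read ratio of 2.78 (2.49 to 3.11), and Gadd45g at 24.9 FPKM (546 reads) and 80.3 FPKM (1764 reads), a read ratio of 3.12 (2.84 to 3.45). Gadd45b relative to Gadd45a therefore went from 0.260 to 5.95 in FPKM, and the most abundant Gadd45 gene was Gadd45a in the control and Gadd45g in the knockdown library. Apex1, the endonuclease that cuts the abasic site TDG leaves, was at 22.6 and 12.5 FPKM (log2 ratio -0.81, read ratio 0.535, 0.467 to 0.613). Neil3, another glycosylase, was at 1.03 and 2.05 FPKM (log2 ratio 0.59, read ratio 1.93).

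Mbd2 (ENSMUSG00000024513, plus strand of chromosome 18, 70568189 to 70626131), the reader of the group, differed little between the libraries. It was at 21.5 FPKM (1293 reads) in the control and 20.2 FPKM (1216 reads) in the knockdown library, with a log2 ratio of -0.08 (read ratio 0.910, 0.840 to 0.984). On the scale of the deposited FPKM the ratio was 0.940 (0.869 to 1.02), and that interval holds 1. Of the 500 genes nearest in mean level, 39.8% had a lower ratio. Of 9 other genes on a list of methyl-CpG readers, 6 reached 1 FPKM, 2 higher and 4 lower. None of the 6 differed 1.5-fold, where 31.2% of all genes did. Their median log2 ratio was -0.14. Mbd3, which takes the place of MBD2 in NuRD and binds methylated CpGs poorly in mammals, was the most abundant at 115.6 and 110.1 FPKM. The extremes were Zbtb4 (log2 ratio 0.34) and Zbtb38 (-0.40), both zinc finger readers. Mbd4, a glycosylase for mismatches at CpGs, stayed under 1 FPKM with 42 and 74 reads (read ratio 1.70, 1.15 to 2.55).

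All 12 NuRD subunits of the list reached 1 FPKM, 7 higher and 5 lower, with a median log2 ratio of 0.08 that was -0.0044 under upper-quartile scaling. Past 1.5-fold were 2 of the 12, against 31.2% of all genes: Chd4, the remodelling ATPase, at 32.2 and 49.8 FPKM (log2 ratio 0.62), and Mta1, a scaffold subunit, at 78.5 and 47.1 FPKM (log2 ratio -0.72). Mta1 was the most abundant of the 3 Mta genes in the control library (78.5 FPKM, with Mta2 at 59.1 and Mta3 at 7.86 FPKM). In the knockdown library Mta2 stood at 49.0 FPKM beside Mta1 at 47.1 FPKM, and Mta3 was at 11.1 FPKM.

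Of the lists, the one with the median farthest from 0 was the methyl donor cycle. It holds genes that supply the methyl group and others that do not, such as Nnmt. All 13 methyl donor cycle genes that reached 1 FPKM, of 15 on the list, had a negative log2 ratio, with a median of -0.74. Of all 10671 genes at 1 FPKM, 5336 had a negative log2 ratio. Lower by 1.5-fold were 7 of the 13, where 14.3% of all genes were. Lower by 2-fold were 4 of the 13, where 518 of the 10671 genes were. Together the 13 genes held 41741 reads in the control and 17046 after knockdown, and without Shmt2, which held the most, 23952 and 12426. Mat2a, the catalytic subunit of the enzyme that makes S-adenosylmethionine, the cofactor of every DNA methyltransferase, was at 58.9 FPKM (4948 reads) in the control and 15.9 FPKM (1336 reads) in the knockdown library. Its log2 ratio was -1.83 and its read ratio was 0.261 (0.246 to 0.277), so the knockdown library held 27.0% of the control FPKM. Its regulatory partner Mat2b was at 9.87 and 9.39 FPKM, with a read ratio of 0.920 (0.838 to 1.01), the highest ratio of the list. Ahcy, which clears S-adenosylhomocysteine, the product that inhibits methyltransferases, was at 61.7 and 36.5 FPKM (log2 ratio -0.74, read ratio 0.573, 0.541 to 0.606).

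The folate genes that feed methionine synthesis were among the lowest. Shmt2, the mitochondrial serine hydroxymethyltransferase, was at 305 FPKM (17789 reads) in the control and 79.3 FPKM (4620 reads) in the knockdown library, the lowest log2 ratio of the list at -1.93. Mthfd1, the cytosolic folate enzyme, was at 36.3 and 8.99 FPKM (log2 ratio -1.90). Mtrr, which reactivates methionine synthase, was at 7.96 and 3.66 FPKM (-0.94). Nnmt, which spends S-adenosylmethionine on nicotinamide, was also lower, at 25.8 and 11.4 FPKM (-1.10). The methyltransferases that use S-adenosylmethionine on DNA had read ratios of 1.03 (Dnmt1, interval holding 1), 2.12 (Dnmt3a) and 0.608 (Dnmt3b, interval holding 1).

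**Figure D4:**
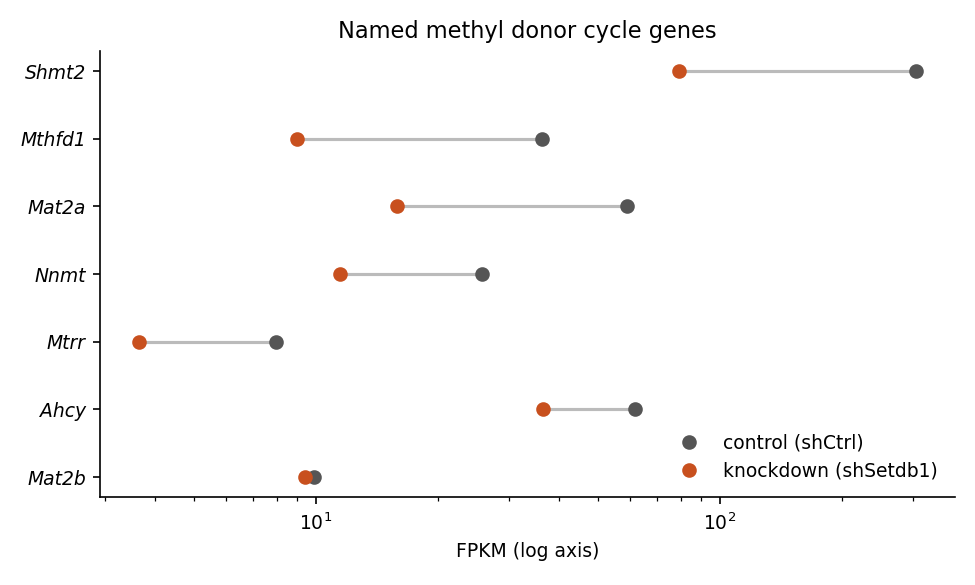
FPKM on a log axis of the 7 methyl donor cycle genes named in the text, in the control (grey) and knockdown (orange) libraries, joined by a line. The knockdown value is to the left for all 7, from 79.3 against 305 FPKM for Shmt2 to 9.39 against 9.87 FPKM for Mat2b.

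**Figure D5:**
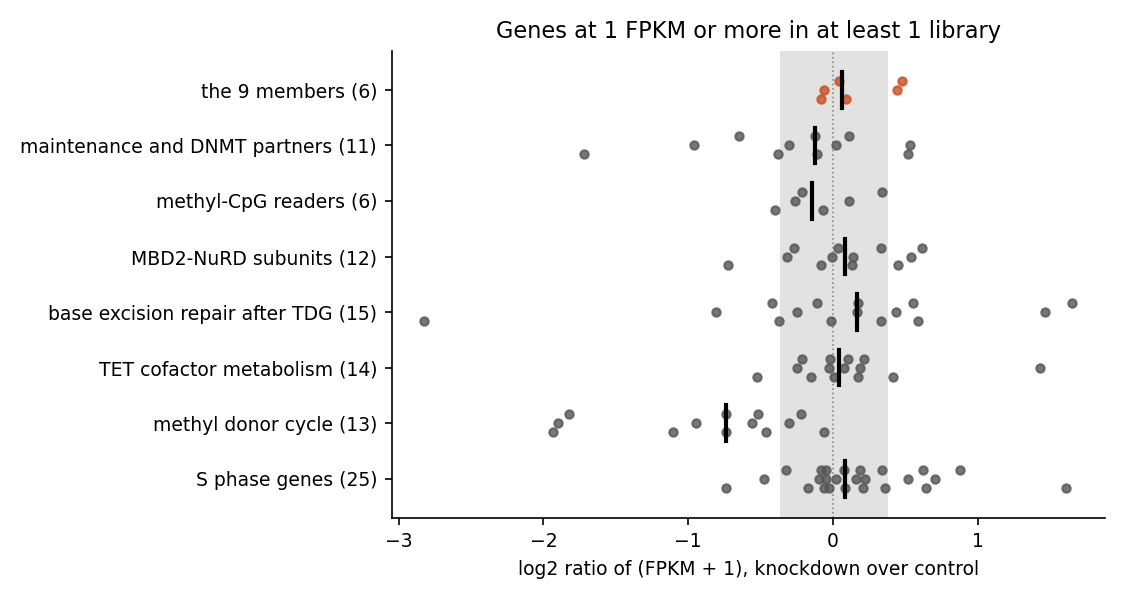
Log2 ratio of (FPKM + 1), knockdown over control, of each gene at 1 FPKM or more in the 9 members (orange) and the pathway lists (grey), with the median of each as a black bar and the middle 50% of all genes, from -0.36 to 0.38, as a grey band. The methyl donor cycle is the list whose median, -0.74, lies outside the band.

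Genes that DNA methylation is known to keep silent in somatic cells were mostly without reads. Of 19 germline genes on that list, 1 reached 1 FPKM, the X-linked homeobox gene Rhox5, at 193 FPKM (2721 reads) in the control and 235 FPKM (3323 reads) in the knockdown library (log2 ratio 0.29, read ratio 1.18, 1.12 to 1.24). It was thus abundant in both libraries. The other 18 genes had 80 reads in the control and 70 in the knockdown library in all, with none above 0.737 FPKM; without Taf7l the other 17 had 49 and 70 reads. Most of these reads were on Brdt, a testis bromodomain gene, with 39 and 61 reads (read ratio 1.51, 0.996 to 2.32, or 1.56, 1.03 to 2.40, on the scale of the deposited FPKM), and on Taf7l, a testis paralog of a TFIID subunit, with 31 reads in the control and 0 in the knockdown library, which allows up to 3. Brdt and Taf7l were named after their values were seen.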

How the data were processed

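RNA sequencing libraries of total RNA (NEBNext Ultra kit, per the labels) were compared, 1 per group, so no p-value, standard deviation or replicate check could be given. The authors deposited FPKM values per gene model, per the file headers. The submitters' processing notes name CASAVA, HISAT2, featureCounts 1.5.0-p3 and GRCm38, with no role or order; strandedness and the annotation release are not given in the sources used here. Of 54409 gene IDs found in GENCODE M21, 98.3% had the same position. FPKM times gene length was a whole multiple of 1 common step for 100% of values above 0 (within 0.01 read), which gave reads at a shared depth of 18731117. Log2 ratios used a pseudocount of 1 and a filter of 1 FPKM in at least 1 library; read ratios used 50 reads in sum. Where a symbol had several loci, the one with most reads was used. Calculations were tested on simulated data.

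Members, the 8 lists and the rule for named genes (the members, Setdb1, 13 direct partners, and the extremes and 1.5-fold genes of each list) were chosen with earlier results of these data known. With 2 libraries a pattern is 1 ratio, so no gene was named for likeness. Some genes that this rule would name are not reported here. Python 3.11.15 with scipy 1.17.1, matplotlib 3.10.9, pandas 2.3.3 and numpy 2.4.6 was used.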

Additional observations from a re-analysis of the deposited data

How the results depend on the processing

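No paired analysis was possible because no group held more than 1 library, so none could be left out. Of 56 alternative ratios of 8 members (Tet1 was left out for its reads), 50 stayed within counting error, 4 moved and 2 changed sign. All settings reuse the same reads, so counting error does not measure how far they can differ, and the 50 are no evidence of robustness. Adding reads of loci with the same protein match could change only Uhrf1 and Tdg. Ratios among the 50 included -0.50 for Dnmt3b (pseudocount of 0.1), 0.41 for Tet2 (CPM) and -0.25 for Tdg (all matching loci). With a pseudocount of 0.1 Dnmt3a was at 0.99 and Setdb1 at -2.04; log2(CPM + 1) gave 0.999 and -2.06. Both settings give the pseudocount less weight for these genes. Upper-quartile scaling gave 0.0022 for Dnmt1, 0.36 for Uhrf1, -0.0188 for Tet3, -0.0083 for the members' median, and medians of -0.0044 for NuRD, -0.0391 for TET cofactor and -0.0019 for S phase genes; it moved the median of all genes at 1 FPKM in both libraries to -0.0759. Without the 100 highest genes, Tet3 was at -0.00021 and TET cofactor genes at -0.0145; the latter were at -0.0039 with own read totals and -0.0024 on CPM. Methyl donor medians were -0.56 without a filter and -0.87 as a mean. The list of maintenance and DNMT partners was at -0.30 with a filter at 5 FPKM and -0.28 as a mean. Genes 2-fold higher and lower numbered 727 and 518, against 1134 and 870 with a pseudocount of 0.1 and 1804 and 1523 at 1.5-fold. The excess of higher genes was smaller under upper-quartile scaling (633 and 606) and on CPM (779 and 742). Read ratios (chosen after seeing the data) gave 1005 and 1023, and 1 member past 2-fold in place of 0. For the other changes the cause was not tested. Depth limits Dnmt3b (35 and 22 reads), Tet2 (37 and 57) and Tet1 (1 and 0).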
